A study of Mus musculus with 6 samples.

Results

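The genes described here encode the cytochrome and ATP synthase subunits that mouse mitochondria make for themselves. They are mt-Cytb, mt-Co1, mt-Co2, mt-Co3, mt-Atp6 and mt-Atp8, together with Gm10925, a pseudogene of mt-Atp6 on chromosome 1. They were taken from a deposited table of 12824 genes by name: 6 were found by their symbol, and Gm10925, whose symbol cell is empty, by its gene ID (ENSMUSG00000100862), which GENCODE M21 pairs with that name. All 7 passed the filter on low counts. RNA was sequenced from whole hearts of 6 adult C57BL/6 mice aged 2 months, each a separate heart. The 3 knockout (KO) hearts had both alleles of the splicing factor gene Srsf4 flanked by loxP sites together with NKx2.5-Cre, a recombinase under the control of a cardiac transcription factor gene, and the 3 control hearts carried the same floxed alleles without Cre. Because no control carries Cre, Cre itself and the loss of Srsf4 cannot be told apart. Whole hearts hold cell types in addition to muscle cells, and which of them lost Srsf4 cannot be told here.

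Mitochondria keep a small circular genome that is read as long RNAs from each strand. These are cut, mostly at transfer RNAs, into messengers, most of which receive short poly(A) tails. Cytochrome b (mt-Cytb) is the core subunit of complex III of the respiratory chain, the cytochrome c oxidase subunits I to III (mt-Co1, mt-Co2, mt-Co3) form the core of complex IV, and the ATP synthase subunits a and 8 (mt-Atp6, mt-Atp8) belong to the membrane part of complex V, where protons pass. The remaining subunits of these complexes come from nuclear genes, and the heart, which draws most of its ATP from this chain, holds very large amounts of these messengers.

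Most of these genes have a near-identical partner in nuclear DNA, which determines what their counts can show. The sequences below are from GENCODE M21 transcripts (GRCm38) and are shown because the partners differ at their ends or at single bases only. Over 678 aligned bases mt-Atp6 and Gm10925 were identical, and mt-Atp6 goes on with the bases in capitals, its stop codon. These are the last 60 bases of mt-Atp6 (chrM:8548-8607, plus strand) and the end of Gm10925 (chr1:24613974-24614030, minus strand). The same holds for mt-Co2 (chrM:7637-7696) against Gm28661 (chr1:24614885-24614941) over 681 bases, and for mt-Co3 (chrM:9331-9390) against Gm28437 (chr1:24613189-24613247) over 783 bases, with capitals for the bases beyond the copy.
mt-Atp6: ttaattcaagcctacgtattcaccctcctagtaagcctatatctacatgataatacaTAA
Gm10925: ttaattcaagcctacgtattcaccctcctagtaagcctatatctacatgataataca
mt-Co2: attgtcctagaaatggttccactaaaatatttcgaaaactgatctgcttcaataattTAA
Gm28661: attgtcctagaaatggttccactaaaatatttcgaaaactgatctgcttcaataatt
mt-Co3: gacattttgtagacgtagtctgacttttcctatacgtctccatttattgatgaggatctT
Gm28437: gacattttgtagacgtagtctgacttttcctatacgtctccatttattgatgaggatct

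For mt-Co1 the 3′ part alone has such a partner. Gm29216 matched mt-Co1 at 482 of 483 aligned bases, with the single substitution A1066T (positions counted from 1 at the 5′ end of mt-Co1, its base first). Gm13340, a full-length copy of mt-Co1 on chromosome 2, differed at 37 of 1545 bases, among them T1072C and C1134T. The 80 bases from chrM:6390-6469, chr1:24616109-24616188 (minus strand) and chr2:22588506-22588585 (minus strand) show these, with capitals where a copy differs.
mt-Co1: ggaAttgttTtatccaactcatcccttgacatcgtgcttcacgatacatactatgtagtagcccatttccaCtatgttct
Gm29216: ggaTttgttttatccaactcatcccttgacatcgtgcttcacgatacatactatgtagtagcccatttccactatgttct
Gm13340: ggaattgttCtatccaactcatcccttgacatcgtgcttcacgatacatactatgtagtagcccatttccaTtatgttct

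Between them mt-Atp8 and mt-Atp6 form 1 messenger with overlapping reading frames, so reads from 43 bases at the end of mt-Atp8 belong to either gene. The whole of mt-Atp8 (204 bases, chrM:7766-7969, plus strand) is shown with this shared stretch in capitals.
mt-Atp8: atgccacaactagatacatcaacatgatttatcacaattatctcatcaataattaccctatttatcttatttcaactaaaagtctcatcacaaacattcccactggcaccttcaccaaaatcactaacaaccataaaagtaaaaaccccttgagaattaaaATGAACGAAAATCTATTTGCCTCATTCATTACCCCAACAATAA

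Gm10925 stood in a row of 7 copies on chromosome 1 between 24611535 and 24616197, which follow the order of the mitochondrial genes from mt-Co1 to mt-Nd4 on the opposite strand. The gap between Gm28661 and Gm10925 was 233 bases, as long as the gap between the matching ends in the mitochondrial genome, which in the latter holds most of mt-Atp8. Likewise the gaps were 2 bases on each chromosome between the mt-Atp6 and mt-Co3 copies and 140 bases on each between the mt-Co1 and mt-Co2 copies. No annotated transcript matched mt-Atp8 at 90% identity over at least 200 bases, nearly the whole gene. Scanned in windows of 75 bases, a length chosen here because the read length is not given in the sources used here, mt-Cytb and mt-Atp8 shared no window with another annotated transcript. In mt-Co1 885 of 1471 windows occurred nowhere else, in mt-Atp6 3 of 607, in mt-Co2 3 of 610, in mt-Co3 1 of 710 and in Gm10925 none of 604. A read that lies inside a shared stretch cannot be told apart between the copies.

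Summed over the genes of the deposited table, each library held 59810975 to 74941323 estimated counts. This makes counting error small beside the spread between hearts for genes at these levels. Srsf4 itself had 9.77 ± 1.24 CPM (counts scaled to library size with trimmed mean of M values factors; SD, n = 3) in KO and 23.1 ± 0.893 in control hearts, so the libraries followed their labels. KO 1 stood apart: in a chi-square comparison of counts its statistic per degree of freedom was 139 against KO 2 and 124 against KO 3, whereas KO 2 against KO 3 gave 23.4 and pairs of controls 22.0 to 46.4. Results that rest on KO 1 are given below with and without it. The library codes of the KO hearts share a prefix that differs from the prefix of the controls, so in all comparisons below the genotype cannot be told apart from a possible batch. Summed heart muscle markers overlapped between the groups (51444 to 56120 CPM in KO, 53850 to 55524 in controls).

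The division of counts between each gene and its chromosome 1 copy had no common value, although the aligned sequences are the same or differ at 1 base. Of the counts on mt-Co2 and Gm28661 together, 98.3% to 98.8% were placed on the pseudogene, so mt-Co2 kept 29314 to 53234 counts a library while Gm28661 had 2282901 to 3351866. The mt-Atp6 and Gm10925 pair was divided less unevenly, with 57.6% to 62.5% on Gm10925. In the mt-Co3 and Gm28437 pair 2.25% (KO 1) to 9.48% (control 2) lay on the pseudogene, a 4.21-fold range between libraries. Of mt-Co1 and Gm29216, 7.47% (control 1) to 11.9% (KO 1) lay on Gm29216. This pair aligns over 483 of the 1545 bases of mt-Co1 only, so its division is not comparable with those of the other pairs. By contrast Gm13340, which differs from mt-Co1 at many positions, received 99 to 204 counts a library beside 6521245 to 9242661 on mt-Co1.

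**Figure D1:**
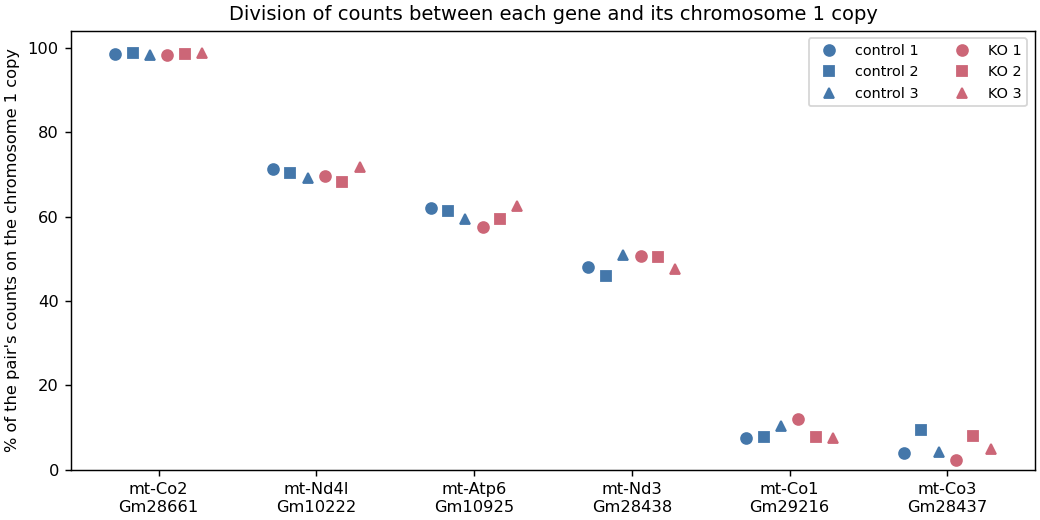
Share of each pair's counts (y axis, %) that the deposited table places on the chromosome 1 copy, for 6 pairs (x axis) in each of the 6 libraries; blue is control, red is KO, and shapes mark hearts 1 to 3. The copy takes over 98% of the mt-Co2 pair in every library and under 10% of the mt-Co3 pair, and the groups overlap in the pair of mt-Atp6 and Gm10925.

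The ratio of Gm10925 to mt-Atp6 counts did not separate the groups. It was 1.64, 1.59 and 1.46 in controls 1 to 3 and 1.36, 1.47 and 1.66 in KO hearts 1 to 3. The mean log2 ratio was 0.58 ± 0.15 in KO and 0.64 ± 0.08 in control hearts (two-sided exact permutation test, p = 0.7, where the smallest p of 3 against 3 is 0.1), and the difference of -0.06 came to 0.0025 without KO 1.

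Counted apart, 2 of the 7 genes rose in KO hearts, mt-Atp6 and Gm10925, and none fell (edgeR adjusted p under 0.05; none fell at an unadjusted p under 0.05 or with DESeq2). Among all 12686 genes tested 6.03% were called, 3.29% as higher. At an unadjusted p under 0.05, 6 of the 7 were higher, beside 11.2% of all genes. In 6 of the 7 every KO value lay above every control value, which held for 13.7% of all genes in this direction. The log2 fold changes of the 7 were all above 0, as were 49.4% of those of all genes, and ran from 0.23 to 0.59 with a median of 0.30, beside -0.0032 over all genes. Because these genes share transcripts, processing and in part sequence, they are not independent of each other. The calls of mt-Atp6 and Gm10925 are not 2 separate results. None of 604 windows of Gm10925 occurred in it alone. Summed, the pair forms 1 row, which can give 1 call at most, and this row was called (edgeR adjusted p = 0.0251). In tissue RNA a different share of cells and a different amount of RNA per cell cannot be told apart.

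**Figure D2:**
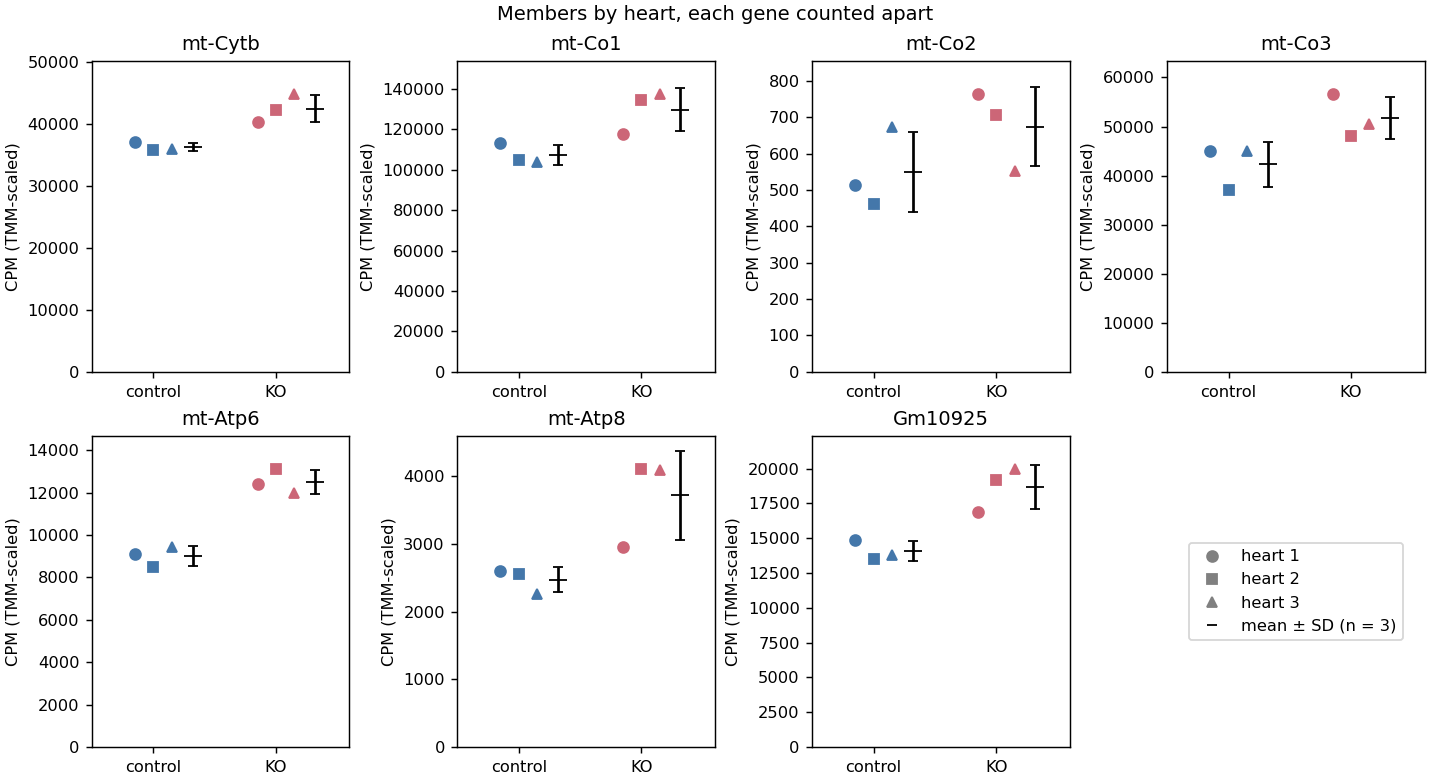
CPM (y axis, linear from 0) of each of the 7 genes in control (blue) and KO (red) hearts, with shapes for hearts 1 to 3 and black bars for mean ± SD (n = 3). KO values lie above control values in every panel except that of mt-Co2, where 553 CPM in KO 3 falls below 673 CPM in control 3.

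Subunit a of ATP synthase, mt-Atp6 (ENSMUSG00000064357, chrM:7927-8607), had 9101, 8505 and 9454 CPM in controls 1 to 3 and 12427, 13097 and 11981 CPM in KO hearts 1 to 3. All 3 KO hearts were above all controls, and KO 1 was no exception. The increase was 1.39-fold (log2 fold change 0.47, SE 0.08, edgeR adjusted p = 0.0194). The call was lost when any single library other than KO 1 was left out (edgeR adjusted p 0.0561 to 0.125) and kept without KO 1 (0.00482), with log2 fold changes of 0.43 to 0.51.

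Gm10925 (chr1:24613974-24614651, minus strand, pseudogene) had 14891, 13498 and 13814 CPM in controls 1 to 3 and 16916, 19205 and 19946 CPM in KO hearts 1 to 3. These counts are a model's division of reads shared with mt-Atp6, so whether the pseudogene itself differed cannot be told. Here KO 1 was the lowest of the KO hearts, yet still above each control. The increase was 1.33-fold (log2 fold change 0.41, SE 0.09, edgeR adjusted p = 0.0480). This call, too, held only without KO 1 among the fits that left out a library (edgeR adjusted p = 0.00352, against 0.132 to 0.180 in the others). It was also lost with upper-quartile factors, limma-trend and no filter (adjusted p = 0.0552, 0.0508 and 0.0508).

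Summed with its copy, which does not depend on how the reads were divided, mt-Atp6 had 23990, 22002 and 23267 CPM in controls 1 to 3 and 29339, 32314 and 31925 CPM in KO hearts 1 to 3. The groups did not overlap. The sum rose 1.35-fold, with means of 23086 ± 1006 and 31193 ± 1617 CPM (edgeR log2 fold change 0.43 with an SE of 0.08, adjusted p = 0.0210). The adjusted p ran from 0.0721 to 0.103 when a library other than KO 1 was left out and was 0.00212 without KO 1.

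Subunit 8, mt-Atp8 (ENSMUSG00000064356), had 2602, 2562 and 2257 CPM in controls 1 to 3 and 2961, 4103 and 4097 CPM in KO hearts 1 to 3. KO 2 and KO 3 were nearly equal and far above KO 1, which lay just above the highest control. The difference was the largest of the 7 in size (log2 fold change 0.59, SE 0.14) and did not pass (edgeR adjusted p = 0.0583). Without KO 1 it did, at a log2 fold change of 0.73 (edgeR adjusted p = 0.000761), while without any other library the adjusted p was 0.148 to 0.205.

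The cytochrome c oxidase subunit I gene mt-Co1 (ENSMUSG00000064351, chrM:5328-6872), the most abundant gene of the table by mean CPM, had 113181, 104584 and 103949 CPM in controls 1 to 3 and 117490, 134294 and 137220 CPM in KO hearts 1 to 3. KO 1 was close to control 1, and the other KO hearts were well above. The 1.21-fold difference did not pass (log2 fold change 0.27, SE 0.09, edgeR adjusted p = 0.132) but did without KO 1 (log2 fold change 0.34, adjusted p = 0.0112). Summed with Gm29216 and Gm13340 it was 117198 ± 4592 CPM in control and 142474 ± 8026 CPM in KO hearts (adjusted p = 0.0774; without KO 1 0.00820).

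Subunit II, mt-Co2 (ENSMUSG00000064354, chrM:7013-7696), carries the binuclear copper site that accepts electrons from cytochrome c. Counted apart it had 512, 461 and 673 CPM in controls 1 to 3 and 763, 705 and 553 CPM in KO hearts 1 to 3, and the groups overlapped (log2 fold change 0.30, SE 0.17, edgeR adjusted p = 0.385). Summed with Gm28661 the values were 39457, 36367 and 39420 CPM in controls and 48768, 47266 and 45659 CPM in KO hearts. The overlap was gone, and the coefficient of variation fell from 20.2% to 4.62% in controls and from 16.1% to 3.29% in KO hearts. The sum was 1.23-fold higher without passing (log2 fold change 0.30, SE 0.07, edgeR adjusted p = 0.0625), and passed without KO 1 (0.0232).

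Subunit III, mt-Co3 (ENSMUSG00000064358, chrM:8607-9390), which overlaps mt-Atp6 by 1 base, had 44914, 36994 and 44982 CPM in controls 1 to 3 and 56552, 48142 and 50452 CPM in KO hearts 1 to 3. Like mt-Co2, and unlike the other members, it was highest in KO 1 among all hearts. The 1.22-fold difference did not pass (log2 fold change 0.29, SE 0.11, edgeR adjusted p = 0.183). Added to Gm28437, which was high in control 2 and KO 2 (3873 and 4207 CPM), it had 44858 ± 3460 CPM in control and 54422 ± 2985 CPM in KO hearts (log2 fold change 0.28, SE 0.09, adjusted p = 0.117; without KO 1 0.0623).

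Cytochrome b, mt-Cytb (ENSMUSG00000064370, chrM:14145-15288), whose counts share no window with another transcript, had 37090, 35873 and 35942 CPM in controls 1 to 3 and 40416, 42352 and 44845 CPM in KO hearts 1 to 3. The groups were apart, and the coefficient of variation of the controls was 1.88%. The difference was the smallest of the 7 (log2 fold change 0.23, SE 0.08) and did not pass (edgeR adjusted p = 0.143; without KO 1 0.0279).

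**Figure D3:**
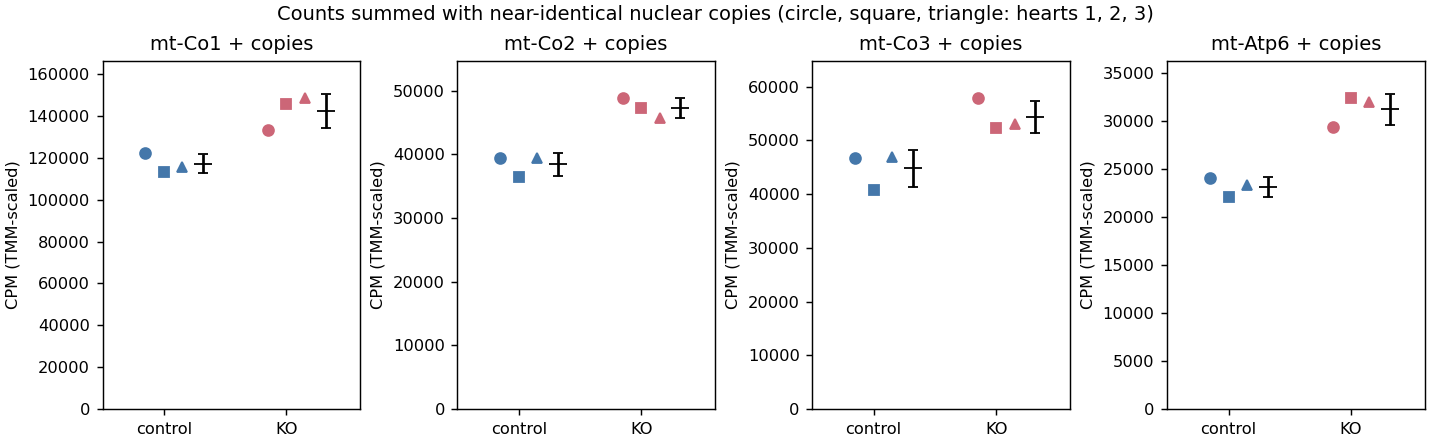
CPM (y axis, linear from 0) of mt-Co1, mt-Co2, mt-Co3 and mt-Atp6 after adding the counts of their near-identical nuclear copies, for control (blue) and KO (red) hearts, with black bars for mean ± SD (n = 3). In each panel the 3 KO hearts lie above the 3 controls, including mt-Co2 (45659 to 48768 against 36367 to 39457 CPM), whose groups overlap when it is counted apart.

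With every gene summed with its copies, all 6 mitochondrial genes had KO values above control values and log2 fold changes between 0.23 and 0.59, with a median of 0.29. mt-Atp6 alone was called, where 3.28% of all genes were called higher. Without KO 1, 5 of the 6 were called, where 12.5% of all genes were called higher, and without any other single library none was (edgeR). Counted apart, the numbers without KO 1 were 5 of 7, where 12.3% of all genes were called higher, and 0 of 7 without each other library. Fits without 1 library leave 1 group with 2 hearts. In the authors' deposited table the log2 fold changes of the 7 genes were 0.23 to 0.59 and their adjusted p-values 0.0708 (mt-Atp8) to 0.775 (mt-Cytb), so that none passed 0.05 there, where 3.42% of genes were called higher.

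**Figure D4:**
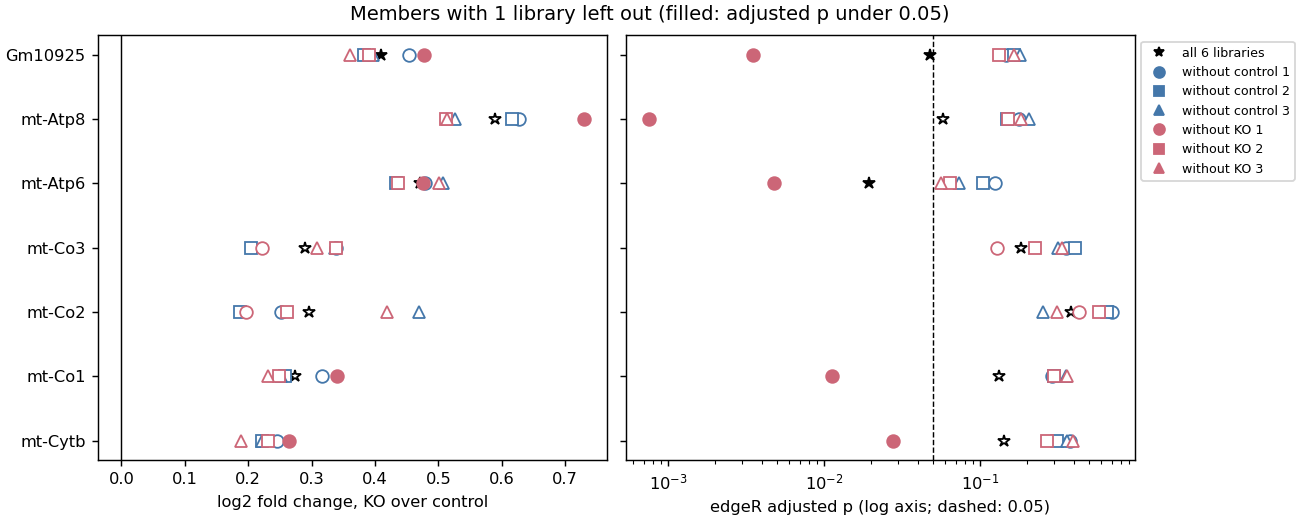
Log2 fold change (left) and edgeR adjusted p (right, log axis, dashed line at 0.05) of each gene with all 6 libraries (star) and with 1 library left out; blue marks a missing control, red a missing KO heart, and filled symbols an adjusted p under 0.05. Every fold change stays above 0, and the filled symbols are those without KO 1 for all genes except mt-Co2 and mt-Co3 and, for mt-Atp6 and Gm10925, the fit with all libraries.

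As a share of all counts in the deposited table the 7 genes took 23.0%, 21.5% and 22.1% in controls 1 to 3 and 23.6%, 25.2% and 25.4% in KO hearts 1 to 3. Exact 95% binomial intervals were at most ± 0.0105 percentage points, for counting error only. The groups did not overlap, though KO 1 was close to control 1. The means were 24.7% ± 1.03 in KO and 22.2% ± 0.745 in control hearts (SD, n = 3 each). With the near-identical copies that had deposited counts added, the shares were 30.7% ± 0.779 in KO and 27.5% ± 0.750 in control hearts. Counted apart, without their copies, mt-Co1, mt-Co2 and mt-Co3 overlapped between the groups as shares of all counts, and mt-Cytb, mt-Atp6, mt-Atp8 and Gm10925 did not. Scaling by total counts, under which the log2 fold changes of all genes had a median of -0.14, left every member above 0 and called none of the 7 (edgeR adjusted p = 0.0501 for mt-Atp6; 3 members at an unadjusted p under 0.05), where 2.16% of all genes were called higher.

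The share of each member among the mitochondrial messengers themselves is a measure that no scaling between libraries touches. Where copies are added, mt-Nd4 still enters without Gm28439, which is identical to it over 876 bases and has no deposited counts. With copies added, mt-Atp6 made up 6.46%, 6.25% and 6.49% of the counts of the 13 mitochondrially encoded protein genes in controls and 6.89%, 7.09% and 6.91% in KO hearts. All 3 KO hearts were higher. The means were 6.40% ± 0.129 and 6.96% ± 0.107 (n = 3 each; two-sided exact permutation test, p = 0.1). Counted apart the mt-Atp6 groups overlapped (exact permutation p = 0.2). The share of mt-Cytb lay lower in all 3 KO hearts, with 10.1% ± 0.111 in control and 9.49% ± 0.205 in KO hearts, and so did that of mt-Co1 (32.5% ± 0.388 against 31.8% ± 0.409; exact permutation p = 0.1 for each). Counted apart the mt-Co1 groups overlapped (36.6% ± 0.677 against 35.7% ± 0.940, exact permutation p = 0.4). The shares of mt-Co2, mt-Co3 and mt-Atp8 overlapped between the groups (exact permutation p = 1, 0.8 and 0.3). These were 6 comparisons. With 3 hearts a group no such test can go below 0.1, and the shares of 1 library sum to 100%, so a higher share of 1 gene lowers the others.

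Per kilobase of transcript (CPM per kb, with no correction for read length, which matters most for the short mt-Atp8) the order of the levels depended on the copies. Counted apart, control hearts had 69410 ± 3338 for mt-Co1, 53950 ± 5858 for mt-Co3, 31732 ± 598 for mt-Cytb, 20748 ± 1077 for Gm10925, 13245 ± 705 for mt-Atp6, 12126 ± 925 for mt-Atp8 and 803 ± 162 for mt-Co2. In this order mt-Atp6 and mt-Atp8 overlapped and the other neighbours did not. With copies added, mt-Co2 had 56162 ± 2592 CPM per kb in controls, within the range of mt-Co3 (57217 ± 4413). mt-Atp6, at 33900 ± 1478, overlapped with mt-Cytb in controls (32308 to 35228 against 31357 to 32419), and in KO hearts it lay above it (43083 to 47451 against 35324 to 39197).

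**Figure D5:**
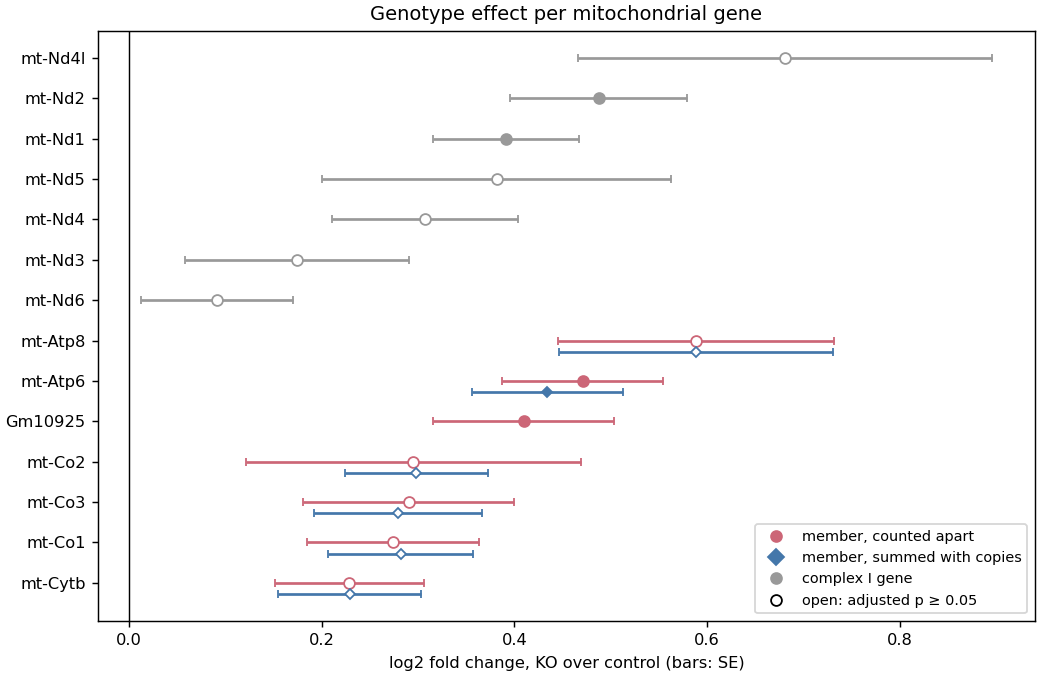
Log2 fold change of KO over control (x axis, bars for SE) for the 7 genes counted apart (red circles), the 6 mitochondrial ones summed with their copies (blue diamonds) and the 7 complex I genes (grey); filled symbols have an edgeR adjusted p under 0.05. All estimates lie above 0, from 0.09 for mt-Nd6 to 0.68 for mt-Nd4l, and the SE of mt-Co2 shrinks from 0.17 to 0.07 on summing.

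The 7 complex I genes of the same genome also had log2 fold changes above 0, with a median of 0.38 (6 of the 7 and 0.24 with total counts). Of these mt-Nd2 and mt-Nd1 rose (1.40-fold and 1.31-fold, edgeR adjusted p = 0.0247 and 0.0270). Leaving out any library other than KO 1 lost both calls, as did total counts. The gene mt-Nd6, the only protein gene read from the opposite strand, differed least (log2 fold change 0.09, SE 0.08, edgeR adjusted p = 0.571). The sources used here give no strand setting, so whether its counts come from its own strand cannot be told. The mitochondrial ribosomal RNA mt-Rnr2 had 4008 ± 199 CPM in KO and 3281 ± 216 CPM in control hearts and mt-Rnr1 1676 ± 223 and 1585 ± 146 CPM, and neither passed (edgeR adjusted p = 0.112 and 0.770).

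Nuclear genes for the partner subunits mostly had log2 fold changes below 0, under every scaling tried. Their summed CPM overlapped between the groups, with KO values both below and above the control range. The sums were 4530 to 6055 CPM in KO and 5092 to 5920 CPM in control hearts for complex III. For complex IV they were 6175 to 9504 against 7239 to 9043 CPM, and for ATP synthase 14894.4 to 19398.5 against 17027.2 to 19022.8 CPM. Of 9 complex III subunits none passed in edgeR or DESeq2, none had an unadjusted p under 0.05, and all had log2 fold changes below 0 (median -0.12; 1 was above 0 with RLE factors). Those with the smallest p were Uqcrh and Uqcrq, with log2 fold changes of -0.32 and -0.38. In KO 1 they had 548 and 407 CPM, within the control ranges of 467 to 607 and 326 to 449 CPM. Of 17 complex IV subunits 1 fell, none rose and 1 had a log2 fold change above 0 (median -0.11), where 2.74% of all genes were called lower. It was Cox7a2l, at 130 ± 12.1 CPM in KO and 205 ± 14.2 CPM in control hearts (log2 fold change -0.66, SE 0.10, edgeR adjusted p = 0.00985). Cox7a2l lost its call without control 1 or control 3 (edgeR adjusted p = 0.0660 and 0.0584). The pseudogene Gm6969 is identical to it over 201 bases and had 33.1 ± 1.45 against 0.0915 ± 0.0213 CPM, so part of its reads may be divided, and the sum of both was 163 ± 13.3 against 205 ± 14.2 CPM. Of 18 genes of ATP synthase and its inhibitor 1 fell, none rose and 2 had log2 fold changes above 0 (median -0.13). It was Atp5e, the epsilon subunit of the central stalk, with 365, 308 and 421 CPM in controls 1 to 3 and 54.8, 124 and 32.2 CPM in KO hearts 1 to 3 (log2 fold change -2.37, SE 0.45, edgeR adjusted p = 0.0262). Its groups were far apart, but the call was lost without any of the controls or without KO 1 (edgeR adjusted p 0.0800 to 0.0990).

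Lists of genes that act on mitochondrial DNA and RNA held 0 to 1 called gene each, where 3.29% of all genes were called higher. Of 16 genes of mitochondrial transcription and replication none passed in edgeR, 4 were higher at an unadjusted p under 0.05 (11.2% of all genes) and 3 with DESeq2 (6.43% of all genes), and the median log2 fold change was 0.11. Top1mt, the mitochondrial topoisomerase, and Tfb2m, which opens mitochondrial promoters together with the polymerase, had log2 fold changes of 0.45 and 0.27 (edgeR adjusted p = 0.0553 and 0.0933). Of 21 genes of mitochondrial RNA processing and stability Ptcd3, a protein of the mitochondrial ribosome, rose (125 ± 2.99 against 101 ± 1.14 CPM, edgeR adjusted p = 0.0469) and none fell, with a median of 0.10. Of 8 regulators of mitochondrial biogenesis Esrrg, an orphan nuclear receptor that acts on genes of energy metabolism, rose (37.1 ± 4.41 against 25.4 ± 3.17 CPM, edgeR adjusted p = 0.0475) and none fell. The calls of Ptcd3 and Esrrg were kept only without KO 1 among the fits that left out a library, and both were lost with total counts. That of Ptcd3 was also lost with upper-quartile factors and the authors' factors (edgeR adjusted p = 0.0662 and 0.0531), and that of Esrrg with no filter (0.0514). Total-count scaling also turned the medians of these lists to -0.02, -0.04 and -0.04.

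Of 27 assembly factors of complexes III, IV and V 2 rose, where 3.29% of all genes were called higher, and none fell (median 0.02, and -0.12 with total counts and -0.0031 with upper-quartile factors). Cox19, a copper-related factor of complex IV assembly, had 28.2 ± 1.48 CPM in KO and 19.9 ± 1.19 CPM in control hearts (edgeR adjusted p = 0.0143; lost without any control or without KO 2, at 0.0510 to 0.0839). Atpaf1, a chaperone of the ATP synthase beta subunit, had 68.6, 66.8 and 68.7 CPM in controls 1 to 3 and 88.9, 89.6 and 86.6 CPM in KO hearts 1 to 3. These groups were far apart relative to their spread (1.30-fold, edgeR adjusted p = 0.0182; kept only without KO 1 when a library was left out, and lost with total counts). Its pseudogene Gm14117 shares 814 identical bases with it and had 2.62 to 4.80 CPM in control and 3.37 to 5.92 CPM in KO hearts.

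Atpaf1 was also among the 5 nuclear genes whose pattern over the 6 libraries was most like the mean log2 CPM of the 6 mitochondrial genes, out of 3036 candidates whose log2 CPM averaged 5 or more. The others were Fam220a, Lap3, Ankrd23 and Gm5532, and their Pearson correlations lay between 0.979 and 0.993. The 6 points fall into the study's 2 groups and share library scaling, so these values describe likeness over 6 libraries. Ankrd23, a stretch-related protein of the muscle titin filament, had 128, 118 and 128 CPM in controls 1 to 3 and 247, 351 and 283 CPM in KO hearts 1 to 3, 2.36-fold higher (edgeR adjusted p = 0.00228), and kept its call in every fit that left out a library. A transcript not used here, Gm42417, is identical to it over 1450 bases.

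Markers of other cell types were checked beside these results. Summed smooth muscle and pericyte markers lay lower in all KO hearts (407 to 513 against 571 to 663 CPM), with Acta2 called lower among 5 (edgeR adjusted p = 0.00547). The 4 macrophage and monocyte markers found were lower in sum (23.2 to 33.9 against 34.2 to 39.0 CPM). None of these 4 was called in edgeR or DESeq2, and 1 had a log2 fold change above 0. Fibroblast markers (283 to 614 against 494 to 529 CPM), endothelial markers (318 to 548 against 440 to 457 CPM) and red blood cell markers (228 to 753 against 429 to 575 CPM) overlapped between the groups. Skeletal muscle markers, of which Acta1 and Ckm are also made in heart, overlapped too (1772 to 2528 against 2054 to 2526 CPM), as did Cidea, the brown fat marker found (18.7 to 21.3 against 18.7 to 20.5 CPM). Liver markers summed to 0.544 CPM or less. Myh1, Myh4, Ucp1, Adipoq, Plin1 and Adgre1 were looked for by symbol, were not found and so were not analysed here. The part of these differences in the mitochondrial values was not tested.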

How the data were processed

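Poly(A)-selected RNA from 6 hearts was sequenced, per the labels' protocols. Per the file headers the deposited table holds raw values per library, taken as the authors' estimated counts (expected counts) because the submitters' processing notes name RSEM, beside cutadapt, Picard, edgeR and GRCm38; the sources used here give no aligner, annotation release or strand setting. RSEM estimates by a model how ambiguous reads divide between genes. The authors' normalized signal equals the counts times 1 factor per library. The comparison the authors deposited lists log2 fold changes, signed fold changes (a score) and p-values. Table coordinates of all 7 genes equal those of GENCODE M21, which named 60 of the 74 rows with no symbol.

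The counts, whole numbers as deposited, were tested with edgeR 4.0.16 in R 4.3.3 (TMM, default filter by group, which removed 138 genes and left 12686, robust quasi-likelihood F test, 6 libraries, no covariate, Benjamini-Hochberg over all genes, threshold 0.05). The SE of a log2 fold change is its size over the root of F; log2 CPM used a prior count of 2. Copies were found with blastn 2.17.0 in GENCODE M21 transcripts, the longest per gene (at least 90% identity over 200 bases for mitochondrial genes and 100 for the nuclear genes named). Of the 15 copies of mitochondrial genes found, 7 had deposited counts, and sums with copies use these 7 only. The fit was also run on simulated data, for which no result is given here. Members, gene lists and tests were chosen with earlier results of these data known. Named genes are the 7 genes, the complex I genes, up to 4 called genes of each list or else the 2 with the smallest p, the genes of most similar pattern and Srsf4. Other settings tried were other scalings, DESeq2 1.42.0, limma 3.58.1, other filters, a block for heart number, leaving out libraries, and sums over copies. Shares and ratios were compared with exact two-sided permutation tests. Adding to every gene its copies with counts was chosen after the data were seen. So were the authors' scaling factors and leaving out libraries from the summed counts.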

Additional observations from a re-analysis of the deposited data

How the results depend on the processing

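All 7 genes kept log2 fold changes above 0 under every setting run in which they had a value. Over all genes 765 were called, and 1163 with total counts, 1455 with DESeq2, 3547 with limma voom with sample quality weights, 505 with the heart number as a block, 291 at an adjusted p of 0.01, and 288 to 2896 with 1 library left out (the most without KO 1). With total counts 23.6% of the calls were higher in place of 54.5%. Of the 7 genes 2 were called, and 5 with DESeq2 or weighted voom (all but mt-Co2 and mt-Co3), 1 with upper-quartile factors, limma-trend, no filter or any of the sums over copies, 0 with total counts, with the block or at an adjusted p of 0.01, and 0 to 5 with 1 library left out. In the sums over copies Gm10925 has no row of its own, so it cannot be called there. The adjusted p of mt-Atp6 ran from 3.23e-07 to 0.125 and that of Gm10925 from 0.000508 to 0.180 over all settings. For the sums with copies, leaving out a library was the one alternative run. Scaling factors computed without mitochondrial genes and copies gave 764 calls over all genes and kept both calls among the 7. The correlations of same-numbered libraries around their group means were -0.06, 0.15 and -0.26, and those of the other pairs -0.24 to 0.31. With 3 libraries a group these values cannot show whether the hearts were paired. The block result is given here as a setting only (edgeR, mt-Atp6 adjusted p = 0.0785, Gm10925 0.134).

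The difference of KO and control hearts in the log2 ratio of Gm10925 to mt-Atp6 ran from -0.14 to 0.0025 with 1 library left out. In the share of mitochondrial messengers, counted apart, that of mt-Co2 ran from -0.0195 to 0.0221 percentage points and that of mt-Co3 from -1.27 to 0.558, so these small differences have no stable sign. The share of all counts on the 7 genes differed by 2.52 percentage points and by 2.17 to 7.63 over its alternatives, the last with counts of other genes as the denominator. With total counts the lists of mitochondrial transcription, RNA processing, biogenesis and assembly factors had medians below 0. The cause of each shift was not tested. At these levels counting error is small beside the spread between hearts.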
